A study of Mus musculus with 12 samples.

Results

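The suppressors of cytokine signalling (SOCS) are a gene family of 8 members, Cish and Socs1 to Socs7, and their expression was followed in splenic dendritic cells (DCs) of the mouse. Members were chosen as the probe sets of an Affymetrix array that are annotated to only one of these 8 symbols. The rule found 24 of the 45101 probe sets on the array: 1 for Socs1, 6 for Socs2, 3 for Socs3, 1 for Cish, 4 for Socs4, 2 for Socs5, 3 for Socs6 and 4 for Socs7. The rule itself uses no measured value, but the members were chosen with earlier results of these data known. DCs are antigen-presenting cells that mature when they sense microbial products or receive help from T cells. They came from aly (Alymphoplasia) mice or from heterozygous littermates, and the latter are called WT here as in the labels, although they carry 1 aly allele. The aly allele is a point mutation of Map3k14, which encodes NIK, the kinase at the head of the non-canonical NF-kB pathway, and every cell of the mouse carries it. Mice were untreated or received, into the peritoneum, 25 µg LPS (a ligand of Toll-like receptor 4) and 100 µg of an agonistic anti-CD40 antibody, which stands in for T cell help, and DCs were taken after 6 h. WT untreated, WT treated, aly untreated and aly treated DCs were each measured on 3 arrays. The RNA on an array was a pool from the DCs of 3 mice, which were selected with CD11c beads before flow sorting, so every p-value measures the spread between pools and not between single mice. The labels give neither strain background nor age of the mice.

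SOCS proteins share a central SH2 domain, which binds phosphorylated tyrosines, and a C-terminal SOCS box, which binds elongins and, through them, a cullin 5 ubiquitin ligase. Cytokine receptors signal through JAK kinases and STAT transcription factors, STATs induce Cish, Socs1, Socs2 and Socs3, and the encoded proteins then damp the same receptors, which closes a negative feedback loop. SOCS1 and SOCS3 carry in addition a short region that blocks JAK kinase activity. CIS and SOCS2 act mainly at receptors that use STAT5, SOCS3 at receptors that contain gp130, and SOCS1 at interferon receptors, whereas SOCS4 to SOCS7 are better known for binding growth factor and insulin signalling proteins. In DCs, SOCS1 is known as a brake on interferon signalling and antigen presentation.

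Values are scaled array intensities, and a change is a difference in log2 of the intensity plus 16, fitted with limma across 34205 probe sets and given with its standard error. Calls were made where the Benjamini-Hochberg adjusted p over all probe sets tested was under 0.05. The aly treated replicate 1 array stood apart from the other 11. Its Actb signal was 55.8 times higher at the 3' than at the 5' end of the transcript, against 1.39 to 5.92 on the others, and its hybridisation controls averaged 24396 against 1933 to 3739. The mean log2 3'/5' ratio of Actb and Gapdh was 3.07 ± 1.31 (SD, n = 6) on the aly arrays and 1.57 ± 0.18 (SD, n = 6) on the WT arrays (two-sided exact permutation p = 0.0022), so RNA quality moved with genotype. Poly-A spike controls averaged 4.29 to 19.8 on the 4 arrays numbered replicate 1 and 50.7 to 460 on the other 8. The 12 markers of red pulp macrophages summed to intensities of 27700 to 62590 on the aly arrays and 2438 to 15802 on the WT arrays, with 7 called higher in aly untreated and 5 in aly treated DCs, where 0.446% and 2.27% of all genes were. Erythroid markers, 6 of 10 measured, summed to 267 to 728 in WT treated and 1176 to 4419 in aly treated DCs, with 1 called higher in aly untreated and 2 in aly treated DCs. Neutrophil markers, 7 of 9 measured, summed to 13767 on aly treated replicate 1 and to 130 to 2863 on the others. The 12 pan-DC markers were all measured, with sums of 47315 to 109193, and 2 were called lower in treated aly than in treated WT DCs, where 2.38% of all genes were. T cell markers summed to 47.3 to 366, with 6 of 11 below the filter and none called in any comparison. In RNA of bulk sorted cells, fewer cells of a type and less RNA per cell cannot be told apart. Fits with the 3'/5' ratio as a covariate, with a block for the spike-in difference and without single arrays are given at the end. Beyond these fits, the part of these features in the differences between genotypes was not tested. Map3k14 probe set 1434364_at averaged 157 ± 44.6 (SD, n = 3) in WT untreated and 167 ± 53.2 (SD, n = 3) in aly untreated DCs, and a level cannot check a point mutation.

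All 24 SOCS probe sets passed the filter on low values, which asked for a value above the array's 40th percentile on at least 3 arrays. Socs1 met it on only 4 arrays, the 3 WT treated arrays and aly treated replicate 2, so it was measured through the group in which it was high. After treatment 10 of the 24 probe sets were called higher in WT DCs, all from Socs1, Socs2, Socs3 and Cish, where 3.82% of all probe sets tested were called higher. Of the 24, 10 had all WT treated arrays above all WT untreated ones, where 13.8% of all probe sets had such a gap upwards. They were the same 10, so this gap restates the calls and is not separate support. None of the 24 was called lower by limma, where 2.72% of all were, and 2 had an unadjusted p under 0.05 in that direction. In aly DCs 3 of the 24 were called higher, from Socs2 and Socs3, where 0.257% of all were, and again none lower, where 0.0175% of all were and 0 members had an unadjusted p under 0.05. In aly DCs 7 of the 24 had all treated arrays above all untreated ones, where 6.29% of all probe sets did. Between the treated genotypes 2 of the 24 were called lower in aly, 1 of Socs1 and 1 of Socs2, where 2.01% of all were, and none higher, where 1.78% of all were and 2 members had an unadjusted p under 0.05. The response itself differed by genotype in 1 of the 24, a Socs2 probe set, where 0.0497% of all did. Between untreated genotypes 0 of the 24 were called by limma, where 0.371% of all were called in either direction, and 2 of the 24 had an unadjusted p under 0.05. Members split by gene, and their median change of 0.13 in WT DCs, beside -0.07 over all probe sets, therefore describes few of them.

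**Figure D1:**
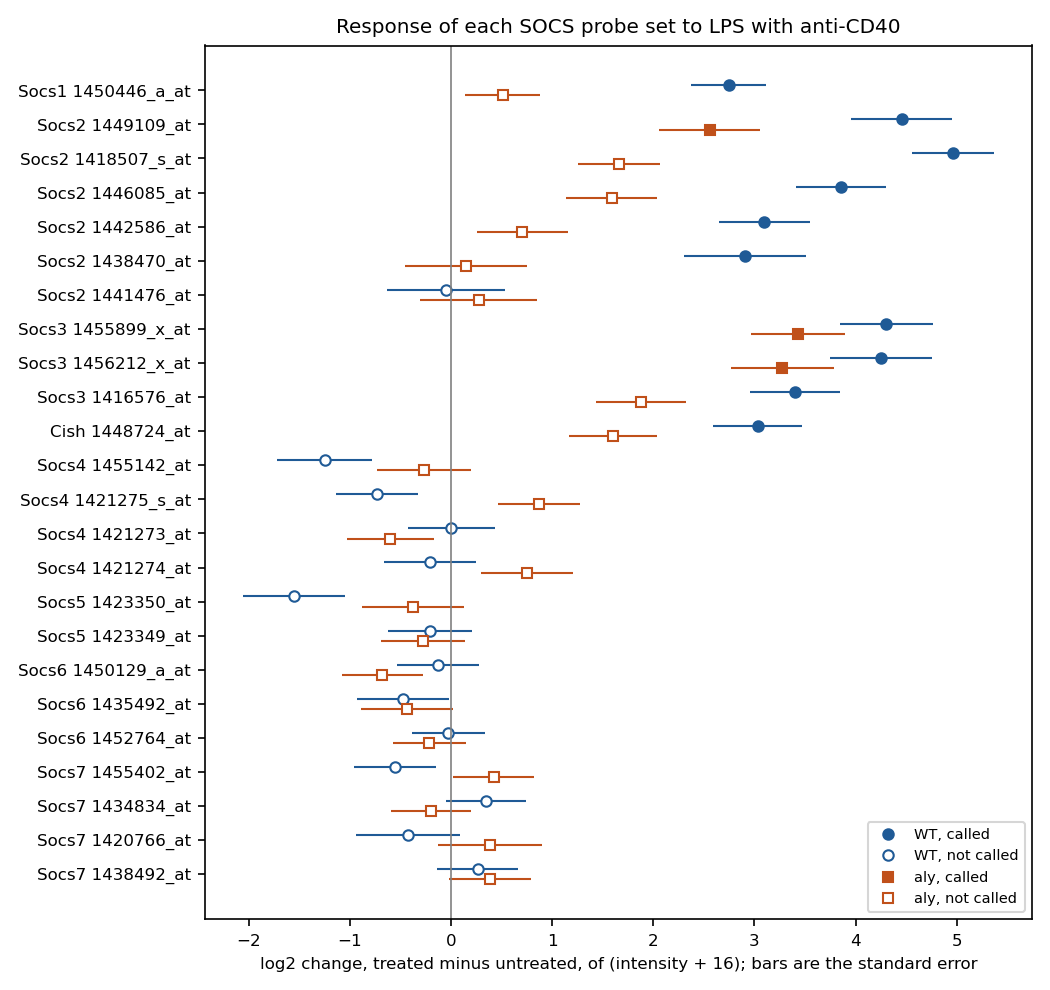
Change of each of the 24 SOCS probe sets after LPS with anti-CD40, as the log2 difference of intensity plus 16 (x axis), in WT (blue circles) and aly (orange squares) DCs. Bars are standard errors (n = 3 arrays in each group), and filled symbols were called at an adjusted p under 0.05. The 10 filled WT points lie between 2.74 and 4.97, whereas the WT points of Socs4 to Socs7 lie between -1.55 and 0.35.

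Socs2, which encodes a receptor-binding inhibitor best known for limiting growth hormone signalling, rose in WT DCs on 5 of its 6 probe sets. On 1449109_at the WT untreated arrays read 201.3, 118.1 and 186, and the WT treated arrays 4091.5, 3913.1 and 3831.6. The aly untreated arrays read 372.6, 217.6 and 148.6, and the aly treated arrays 3687.8, 1046.9 and 756. All treated arrays lay above all untreated ones, and the 3 aly treated arrays lay below the 3 WT treated arrays, although replicate 1 came close to them. The rise was 4.45 ± 0.50 in WT (21.9-fold, adjusted p = 2.78e-05) and 2.56 ± 0.50 in aly (5.88-fold, adjusted p = 0.040). The call in aly was not stable: it held in 2 of the 12 fits that left out 1 array each (adjusted p 0.019 to 0.27) and in 6 of 12 other alternatives. Without aly treated replicate 1 the change was 1.88 (adjusted p = 0.057).

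The Socs2 probe set 1418507_s_at gave the widest gap between treated genotypes of the 24. It read 140, 78.7 and 117.9 on the WT untreated arrays and 3135.2, 4105.7 and 4633.1 on the WT treated arrays. It read 140.6, 82.7 and 137.4 on the aly untreated arrays and 252.2, 393.1 and 668.3 on the aly treated arrays. The untreated genotypes overlapped, whereas every WT treated array was above every aly treated array. The rise in WT was 4.97 ± 0.41 (31.3-fold, adjusted p = 1.59e-06). In aly the arrays did not overlap either, but the change of 1.66 ± 0.41 was not called (3.16-fold, adjusted p = 0.11), and it was called without aly treated replicate 1 at 1.99 (3.97-fold, adjusted p = 0.034). Treated aly DCs were lower than treated WT DCs by -3.22 ± 0.41 (9.30-fold, adjusted p = 0.0010).

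In WT DCs 3 further Socs2 probe sets rose. Probe set 1446085_at read 49.6, 4.1 and 41.8 in WT untreated, 779.6, 404.1 and 673.8 in WT treated, 54.5, 43.8 and 58.8 in aly untreated, and 249.1, 173.7 and 154.2 in aly treated DCs. Probe set 1442586_at read 1.9, 21.2 and 23.7, then 206.3, 171.9 and 379.6, then 19.7, 36.4 and 57.4, and then 98, 79.9 and 38.5 in the same groups. Probe set 1438470_at read 11.3, 13.4 and 19.2, then 160, 236.1 and 253.3, then 17.6, 26.1 and 55.2, and then 180.4, 18.4 and 4.4. On 1446085_at and 1442586_at all aly treated arrays were below all WT treated arrays, whereas on 1438470_at aly treated replicate 1 lay within the WT treated range and the other two lay far below it. In WT the rises were 3.85 ± 0.45 (14.5-fold), 3.10 ± 0.45 (8.55-fold) and 2.91 ± 0.60 (7.51-fold) in this order, with adjusted p of 3.46e-05, 0.00033 and 0.0063. In aly none of the 3 was called, with changes of 1.59 ± 0.45, 0.71 ± 0.45 and 0.15 ± 0.60 (adjusted p = 0.20, 0.54 and 0.94). Without aly treated replicate 1 the 1438470_at change in aly was -0.81 (adjusted p = 0.66).

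The sixth Socs2 probe set, 1441476_at, stayed low. It read 28.3, 2.6 and 17.5 in WT untreated, 13.5, 20.6 and 7 in WT treated, 20.1, 11.7 and 42.6 in aly untreated, and 140.2, 12 and 7.6 in aly treated DCs. Its groups overlapped in every comparison, its change in WT was -0.05 ± 0.58 (adjusted p = 0.98), and its highest value was on aly treated replicate 1. Over the 12 arrays, the log2 values of the other 5 probe sets correlated with each other at Pearson's r of 0.73 to 0.95, and 1441476_at with them at -0.17 to 0.34, as a description of arrays that share groups. What part of the Socs2 transcripts each probe set reads was not analysed here.

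**Figure D2:**
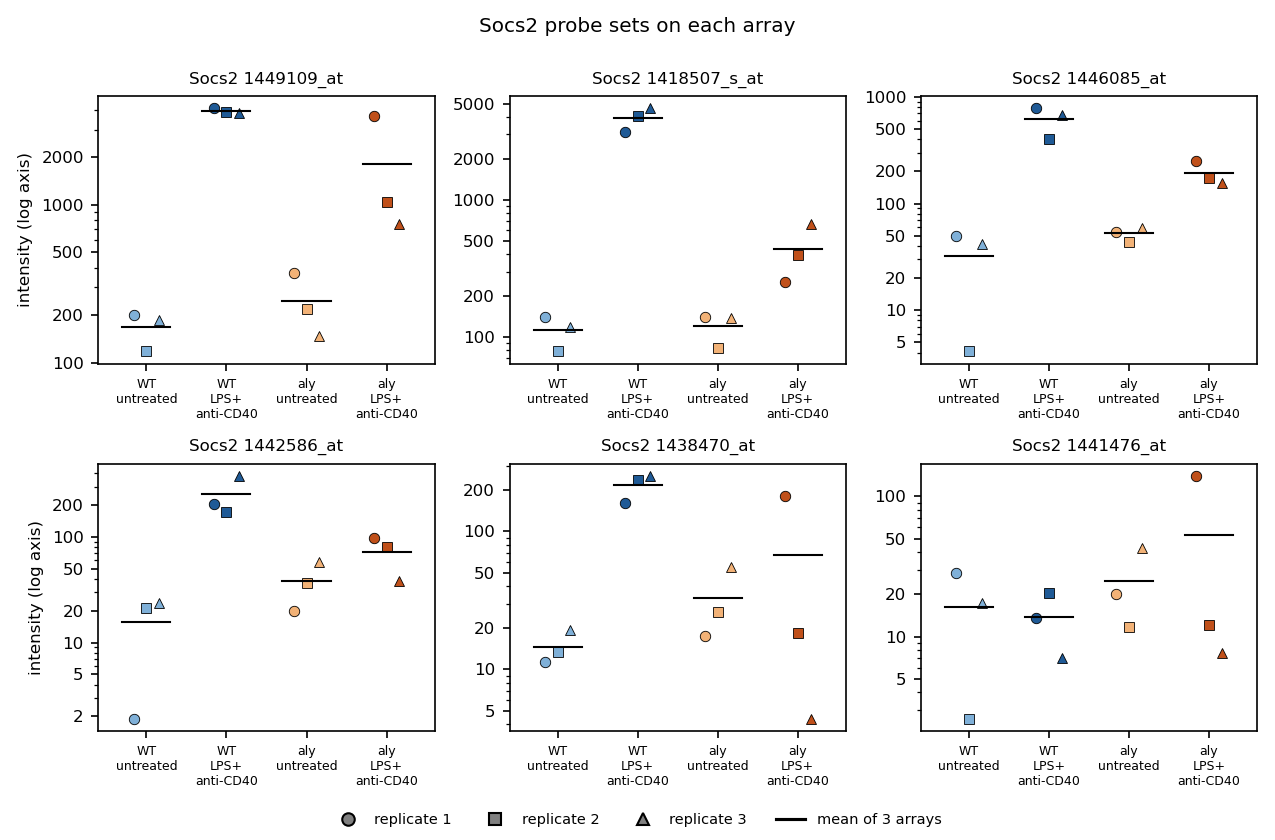
Intensity (log axis) of the 6 Socs2 probe sets on each of the 12 arrays, by group on the x axis. Symbols give the replicate number and lines the mean of 3 arrays. All WT treated arrays stand above all others on 4 probe sets, whereas on 1438470_at aly treated replicate 1 (circle, 180.4) lies among them.

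Socs3, the feedback inhibitor of receptors that contain gp130, such as the IL-6 receptor, rose in WT DCs on all 3 probe sets and in aly DCs on 2 of them. On 1455899_x_at the WT arrays read 106, 166.8 and 61.2 untreated and 2373.1, 2451.4 and 2228.1 treated. The aly arrays read 122.2, 86 and 116.4 untreated and 2612.7, 650.5 and 1323.6 treated. Treated and untreated arrays did not overlap in either genotype, and the treated genotypes overlapped through aly treated replicate 1, the highest of all. The rise was 4.30 ± 0.46 in WT (19.7-fold, adjusted p = 1.67e-05) and 3.43 ± 0.46 in aly (10.8-fold, adjusted p = 0.0027).

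On the other Socs3 probe sets treated arrays also stood above untreated ones. Probe set 1456212_x_at read 32.4, 100.9 and 12.7 in WT untreated, 945.9, 1340.2 and 848.2 in WT treated, 46.2, 61.7 and 30.5 in aly untreated, and 645.2, 298.9 and 967.1 in aly treated DCs. Probe set 1416576_at read 2.1, 34.6 and 13.1, then 194.3, 410.2 and 332, then 32.4, 21.8 and 17.3, and then 166.8, 75.7 and 165.3. All treated arrays were above all untreated arrays on both. On 1456212_x_at the rise was 4.25 ± 0.51 in WT (adjusted p = 4.32e-05) and 3.28 ± 0.51 in aly (adjusted p = 0.0080). On 1416576_at it was 3.40 ± 0.44 in WT (adjusted p = 0.00011), whereas the change of 1.88 ± 0.44 in aly was not called (adjusted p = 0.099). The aly call of 1456212_x_at was lost without aly untreated replicate 1 or without aly untreated replicate 3. An x_at probe set can also detect related transcripts.

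Socs1, the inhibitor of JAK kinases at interferon receptors, rose in WT DCs on its single probe set, 1450446_a_at. The WT arrays read 1, 2.4 and 1.2 untreated and 139.7, 90.6 and 81.6 treated. The aly arrays read 5.2, 2.2 and 2.6 untreated and 10.1, 25.4 and 3.2 treated. All 6 untreated arrays were below the offset of 16, the WT treated arrays were above all others, and the aly groups overlapped. The rise in WT was 2.74 ± 0.37 (6.70-fold, adjusted p = 0.00016). This fold depends on the offset, and with an offset of 1 it was 5.37 on the log2 scale (41.4-fold, adjusted p = 0.0011). In aly the change was 0.51 ± 0.37 (95% confidence interval -0.27 to 1.29, adjusted p = 0.60). Treated aly DCs were lower than treated WT DCs by -2.10 ± 0.37 (adjusted p = 0.0067). With 2 of the 3 aly treated arrays below the offset this size depends on it too, and with an offset of 1 it was -3.25 and not called (adjusted p = 0.0503).

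Cish, which encodes CIS, an inhibitor at receptors that activate STAT5, rose in WT DCs. Its probe set 1448724_at read 42.8, 23.4 and 54.5 in WT untreated and 502.3, 221.5 and 708.1 in WT treated DCs. It read 67.4, 45 and 75.5 in aly untreated and 293.4, 151.2 and 235 in aly treated DCs. Treated arrays were above untreated ones in both genotypes, and the treated genotypes overlapped. The rise in WT was 3.03 ± 0.44 (8.17-fold, adjusted p = 0.00031). In aly the change of 1.60 ± 0.44 was not called (3.03-fold, adjusted p = 0.19), and the treated genotypes differed by -0.93 ± 0.44 (adjusted p = 0.24).

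**Figure D3:**
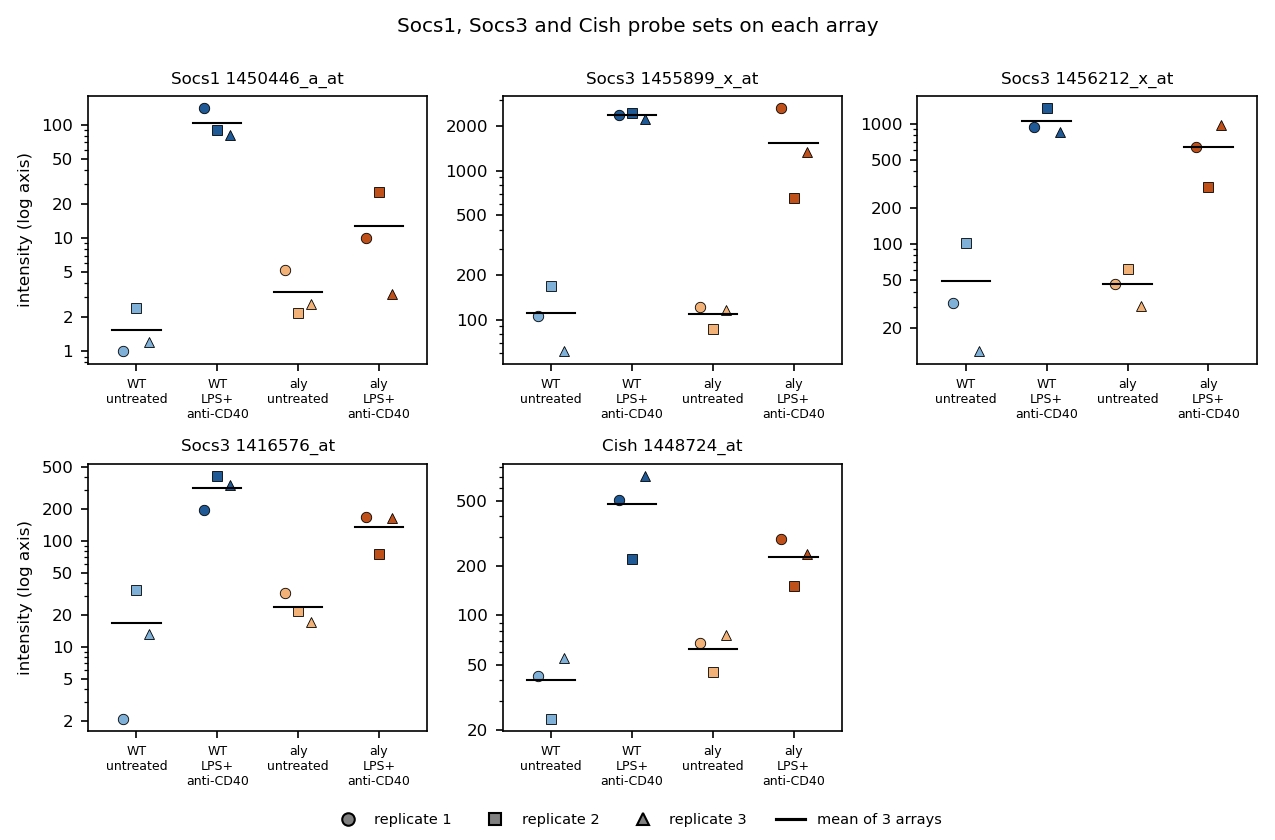
Intensity (log axis) of the Socs1, Socs3 and Cish probe sets on each of the 12 arrays, by group on the x axis. Symbols give the replicate number and lines the mean of 3 arrays. For Socs1 the WT treated arrays (81.6 to 139.7) stand alone, whereas for Socs3 and Cish both treated groups stand above both untreated groups.

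The start regions of Socs1, Socs3 and Cish are shown for the letters of STAT and interferon response motifs, since these genes rose in WT DCs. RefSeq sequences (GRCm38.p6) of 300 bases, from 250 before the transcript start that the sequence table uses to 50 after it, were on hand for 4 of the 8 members. None was on hand for Socs2, which also rose in WT DCs, or for Socs5, Socs6 and Socs7. They are given 5' to 3' along the gene for Socs1 (chr16:10785487-10785786, minus strand), Socs3 (chr11:117969317-117969616, minus strand) and Cish (chr9:107296409-107296708, plus strand), with motif matches in capitals.
Socs1: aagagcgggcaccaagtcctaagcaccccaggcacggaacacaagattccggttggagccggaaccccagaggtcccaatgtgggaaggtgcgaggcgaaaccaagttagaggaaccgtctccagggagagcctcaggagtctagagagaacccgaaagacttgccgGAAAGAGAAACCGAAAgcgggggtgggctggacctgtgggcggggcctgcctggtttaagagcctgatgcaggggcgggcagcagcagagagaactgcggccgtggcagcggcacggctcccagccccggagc
Socs3: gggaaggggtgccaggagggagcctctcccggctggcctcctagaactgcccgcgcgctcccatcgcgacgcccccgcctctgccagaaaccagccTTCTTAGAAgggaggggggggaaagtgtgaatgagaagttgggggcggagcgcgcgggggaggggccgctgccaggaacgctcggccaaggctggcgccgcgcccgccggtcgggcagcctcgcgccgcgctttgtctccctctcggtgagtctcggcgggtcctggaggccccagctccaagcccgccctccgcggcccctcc
Cish: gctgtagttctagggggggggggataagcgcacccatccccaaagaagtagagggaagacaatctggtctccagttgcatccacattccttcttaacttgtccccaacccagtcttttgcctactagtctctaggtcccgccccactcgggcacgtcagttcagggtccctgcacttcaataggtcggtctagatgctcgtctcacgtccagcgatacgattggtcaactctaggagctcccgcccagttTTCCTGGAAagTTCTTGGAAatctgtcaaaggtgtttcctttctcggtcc
The motifs searched on both strands were TTCNNNGAA, like the GAS element that STAT dimers bind, GAAA then any 2 bases then GAAA, like the ISRE of interferon response, and GGG then any 2 bases then TTTCC, like an NF-kB element. Socs1 held 2 overlapping ISRE-like matches, which began 83 and 77 bases before that start. Socs3 held 1 GAS-like match, which began 154 bases before the start. The Socs3 window lies inside the annotated gene, which reaches further upstream (chr11:117966079-117970336). Cish held 2 GAS-like matches, 1 at the start and 1 that began 11 bases after it. Socs4, whose sequence is not printed, held no match of the 3 motifs, and no NF-kB-like match was found in the 4 sequences. Whether a match goes with the response of a gene was not tested. Of 32851 promoters of this length, 8.3% held a GAS-like, 3.44% an ISRE-like and 1.63% an NF-kB-like match, and a match describes letters and not a bound site.

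The response to treatment was then compared between genotypes by the interaction, the aly response minus the WT response, which rests on all 4 groups. It was called on Socs2 1418507_s_at, at -3.30 ± 0.58 (95% confidence interval -4.52 to -2.09, adjusted p = 0.046), so the aly response was 9.88-fold smaller. The other 4 responding Socs2 probe sets gave -1.90 ± 0.71 (1449109_at), -2.27 ± 0.63 (1446085_at), -2.39 ± 0.64 (1442586_at) and -2.76 ± 0.85 (1438470_at), with adjusted p of 0.31 to 0.58. Socs1 gave -2.23 ± 0.53 (interval -3.34 to -1.13, adjusted p = 0.19) and Cish -1.43 ± 0.62 (interval -2.74 to -0.12, adjusted p = 0.66). The 3 Socs3 probe sets gave -0.87 ± 0.65 (interval -2.24 to 0.50), -0.98 ± 0.72 (interval -2.48 to 0.53) and -1.52 ± 0.63 (interval -2.84 to -0.20), with adjusted p of 0.63 to 0.81. All 10 probe sets that rose in WT thus had a negative interaction and 1 of the 10 was called. These 10 were chosen by the WT rise that the interaction subtracts, so the choice favours a negative sign. The shared sign is therefore not separate support. Over all probe sets tested 0.0497% were called lower, and no share was computed among probe sets that rose alike in WT. Whether Socs2 and Socs3 differ in how far their response depends on genotype was not tested. Leaving out single arrays changed the call: 1418507_s_at remained called in 2 of 12 such fits (adjusted p 0.012 to 0.22), without aly treated replicate 1 or without aly treated replicate 3. Without aly treated replicate 1, 3 Socs2 probe sets were called, where 0.406% of all were called lower, with 1449109_at at -2.58 (adjusted p = 0.035) and 1438470_at at -3.72 (adjusted p = 0.0033) beside 1418507_s_at at -2.98.

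Among treated DCs, the 10 probe sets that rose in WT had lower mean log2 values in aly, and 2 of them were called, Socs2 1418507_s_at and Socs1. The WT treated arrays by which the 10 were chosen are also the reference here. That choice favours a lower value in aly, so the common direction of the 10 is not separate support. Of the 24 members, 9 had all 3 aly treated arrays below all 3 WT treated arrays, where 9.02% of all probe sets did, and 0 the reverse, where 13.7% of all did. The Socs2 probe sets 1449109_at, 1446085_at, 1442586_at and 1438470_at differed by -1.45 ± 0.50, -1.58 ± 0.45, -1.60 ± 0.45 and -2.15 ± 0.60, with adjusted p of 0.11, 0.056, 0.056 and 0.055. The Socs3 probe sets differed by -0.83 ± 0.46, -0.82 ± 0.51 and -1.12 ± 0.44 (adjusted p = 0.32, 0.37 and 0.16). Leaving out aly treated replicate 1 raised the count more than leaving out any other array. Without it 7 of the 24 were called, where 2.34% of all probe sets were called lower and 2.51% higher: Socs1 at -2.06 (adjusted p = 0.0044), 5 Socs2 probe sets at -1.77 to -3.11 (adjusted p = 0.0003 to 0.029), and Socs5 1423350_at, higher in aly at 2.16 (adjusted p = 0.0045). Between the replicate 1 arrays alone the difference was -3.55 for Socs2 1418507_s_at, -0.15 for Socs2 1449109_at, -2.58 for Socs1, 0.14 for Socs3 1455899_x_at and -0.74 for Cish. Over replicates 2 and 3 it was -3.05, -2.10, -1.86, -1.32 and -1.02 in the same order. The WT response within the same sets of arrays was 4.34 and 5.28 for Socs2 1418507_s_at, 3.20 and 2.52 for Socs1, and 4.29 and 4.31 for Socs3 1455899_x_at.

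**Figure D4:**
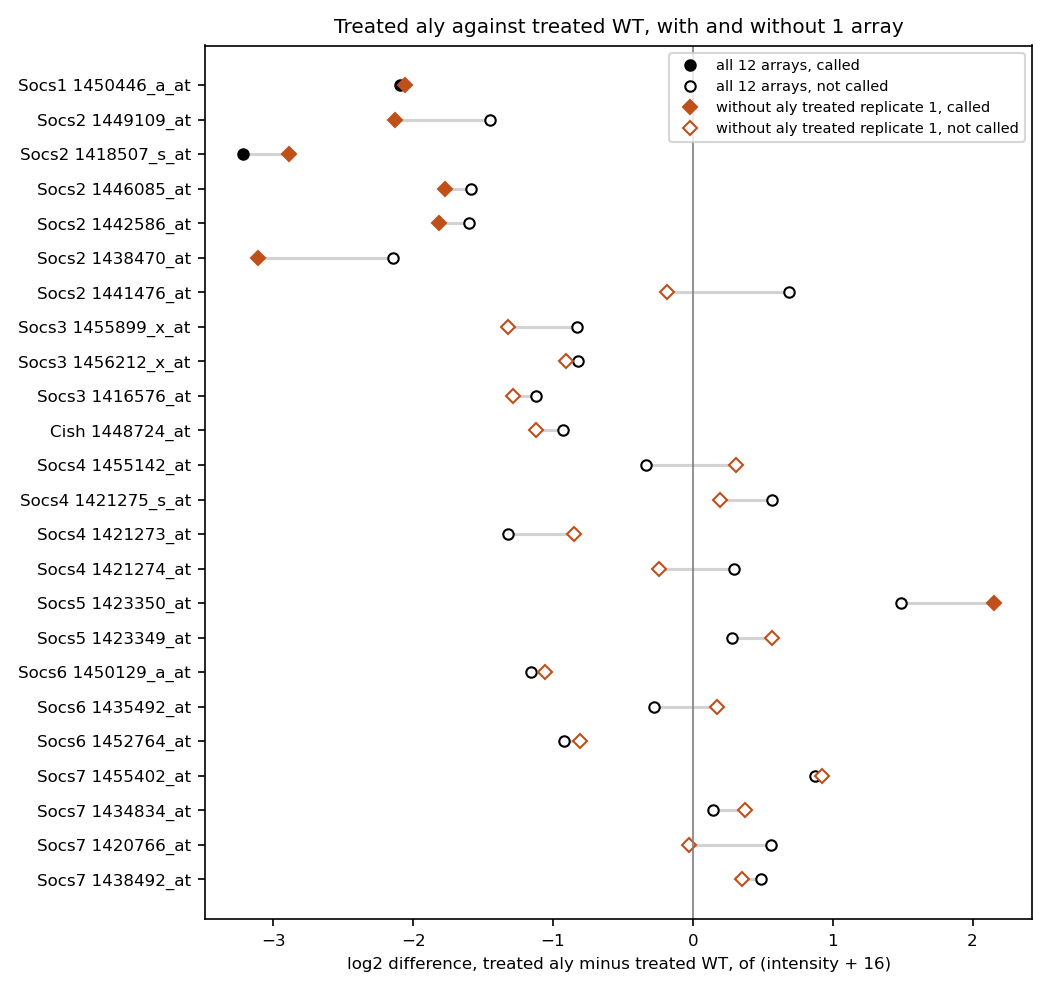
Difference between treated aly and treated WT DCs for each SOCS probe set, in log2 of intensity plus 16 (x axis), with all 12 arrays (circles) and without aly treated replicate 1 (diamonds). Filled symbols were called at an adjusted p under 0.05. With all arrays 2 are filled, and without that array 7 are filled, among them 5 of Socs2.

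The members less tied to cytokine feedback, Socs4 to Socs7, had 13 probe sets and none was called in any of the 5 comparisons. In WT, 3 of them, 2 of Socs4 and 1 of Socs5, had all treated arrays below all untreated ones, where 17.7% of all probe sets did. Socs4 encodes an adaptor known for its action on the EGF receptor. Its probe set 1455142_at read 925.7, 602.8 and 656.5 in WT untreated, 261.2, 322.6 and 296.1 in WT treated, 253.7, 357.5 and 235.3 in aly untreated, and 83.3, 319.2 and 421.1 in aly treated DCs. WT untreated arrays were above all other arrays. The WT response was -1.25 ± 0.47 (adjusted p = 0.13) and the untreated genotypes differed by -1.32 ± 0.47 (adjusted p = 0.33). Without aly treated replicate 1, an array in neither of these groups, both were called at the same size (adjusted p = 0.013 and 0.038). The fit shares its estimate of the spread over all groups, so leaving out that array changed the p-values here but not the sizes. Socs4 1421275_s_at read 97.3 to 119.8 in WT untreated against 39.3 to 72.7 in WT treated and 35.5 to 67.1 in aly untreated DCs, and its change in WT was -0.73 ± 0.41 (adjusted p = 0.36). Socs4 1421273_at had all aly treated arrays (3.2, 37.8 and 31.9) below all WT treated arrays (81.8, 64.9 and 81.1), with a difference of -1.32 ± 0.43 (adjusted p = 0.091). Socs4 1421274_at stayed between 9.9 and 89.6, and its groups overlapped in every comparison.

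Socs5 encodes a protein known for its action on EGF and IL-4 receptor signalling. Its probe set 1423350_at read 364.5, 180.9 and 174.1 in WT untreated, 69.9, 85.8 and 48.4 in WT treated, 232, 291.6 and 340 in aly untreated, and 75.7, 458.6 and 269.7 in aly treated DCs. The 3 WT treated arrays were the lowest of WT, and aly treated replicate 1 was the only aly array in their range. The WT response was -1.55 ± 0.50 (adjusted p = 0.077) and the treated genotypes differed by 1.49 ± 0.50 (adjusted p = 0.10). Without aly treated replicate 1 the WT response was called at the same size (adjusted p = 0.0062). The second probe set, 1423349_at, read 45.3 to 110.9 in WT untreated and 53.8 to 60.6 in WT treated DCs, and these overlapped.

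Socs6 and Socs7 encode adaptors known for insulin receptor signalling in mice. Socs6 1452764_at read 71.4, 31 and 41.2 in WT untreated and 17.5, 27.9 and 19 in aly untreated DCs, and 53.6, 37.3 and 43.9 against 11.4, 24.1 and 14 after treatment. The genotypes did not overlap in either state, at -0.92 ± 0.36 among treated DCs (adjusted p = 0.16). Socs6 1450129_a_at also stood lower in aly after treatment, at 29.8 to 52.5 against 77.3 to 117.7, with a difference of -1.16 ± 0.40 (adjusted p = 0.11). Socs7 1455402_at read 871.3 to 1106.7 in WT untreated, 457.3 to 1003.6 in WT treated, 655.3 to 1230.4 in aly untreated and 920.8 to 1721 in aly treated DCs, and these ranges overlapped. Socs7 1434834_at read 316.3, 252 and 197.3 in WT untreated and 392.2, 559.7 and 317.5 in aly untreated DCs, which did not overlap (0.68 ± 0.39, adjusted p = 0.62), whereas the treated genotypes did. The groups overlapped in every comparison on Socs6 1435492_at, between 3 and 58.9, on Socs7 1420766_at, between 3 and 95.5, and on Socs7 1438492_at, between 1.3 and 25. Of all 24 members, 4 did not overlap between untreated genotypes, 3 lower in aly and 1 higher, where 8.62% and 12.1% of all probe sets did so.

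**Figure D5:**
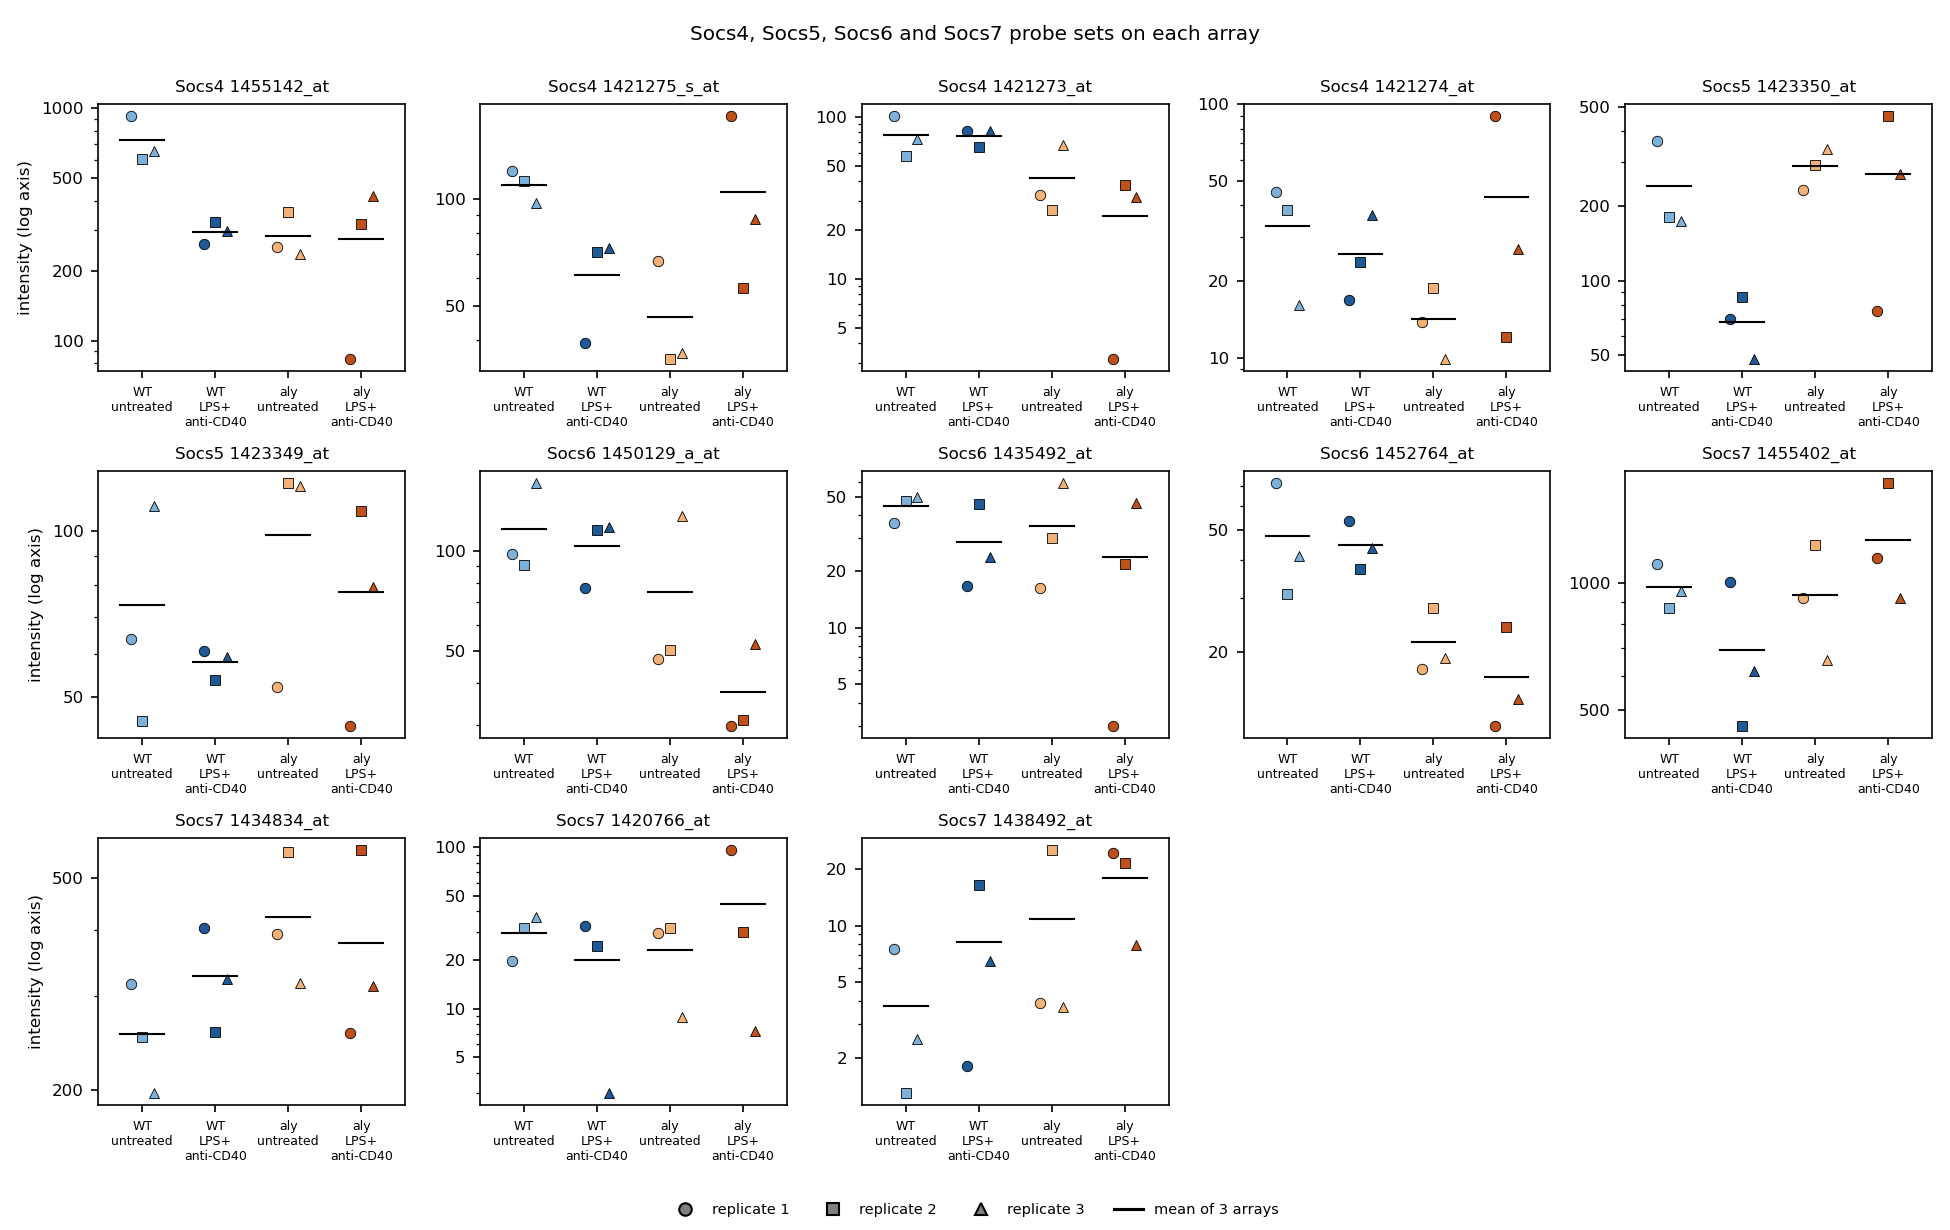
Intensity (log axis) of the 13 probe sets of Socs4, Socs5, Socs6 and Socs7 on each of the 12 arrays, by group on the x axis. Symbols give the replicate number and lines the mean of 3 arrays. WT untreated arrays are the highest on Socs4 1455142_at, WT treated arrays are low on Socs5 1423350_at, and most other panels overlap.

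The pathway in which SOCS proteins act was read from lists of genes, with the probe set of highest mean standing for each gene. Of 20 listed ligands of JAK-STAT receptors 11 were measured and 3 were called higher in WT after treatment, where 4.59% of the 15019 genes were, and 0 in aly by limma, where 0.393% were and 2 ligands had an unadjusted p under 0.05. These were Ifng (interferon gamma) at 6.51 ± 0.77, Il6 at 3.54 ± 0.40 and Il15 at 3.28 ± 0.37. Il15, whose product signals through STAT5, read 74.9 to 152 in WT untreated, 1074.5 to 1178 in WT treated, 110.5 to 166.3 in aly untreated and 77.8 to 131.1 in aly treated DCs. Its treated aly arrays thus stayed within or below the untreated range, and the interaction was -3.61 ± 0.52 (adjusted p = 0.017), where 0.0732% of genes had a negative call. Ifng spread widely in WT treated DCs, at 6301.7, 2232.6 and 640.9. Markers of natural killer cells, which also make interferon gamma, summed to 204 to 371 in WT untreated, 646 to 2612 in WT treated, 220 to 748 in aly untreated and 356 to 952 in aly treated DCs, with 7 of 8 measured. Of these 7, Gzma and Gzmb were called higher in WT after treatment, where 4.59% of genes were, at 3.41 and 4.28. The other 5 were not called, at 1.10 (Klrk1), 0.72 (Eomes), 0.64 (Prf1), 0.09 (Klre1) and 0.08 (Ncr1). The part of natural killer cells in the Ifng difference was not tested.

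Of 26 listed receptors 24 were measured, and in WT 6 were called higher and 1 lower, where 4.59% of genes were higher and 3.9% lower. The 4 with the smallest p were Il2ra at 5.95 ± 0.40, Il15ra at 4.53 ± 0.52, Il7r at 3.35 ± 0.46 and Il4ra at 2.59 ± 0.36, whose products are subunits of the receptors for IL-2, IL-15, IL-7 and IL-4. In aly 1 receptor was called, where 0.393% of genes were called higher. It was Il2ra at 2.72 ± 0.40 (adjusted p = 0.0065). The interaction of Il2ra was -3.23 ± 0.57 (adjusted p = 0.048), where 0.0732% of genes had a negative call. Between treated genotypes 4 receptors were called lower in aly and 2 higher, where 2.38% and 2.27% of genes were. Without aly treated replicate 1, 8 receptors were called higher in WT and 2 lower, where 7.21% and 9.93% of genes were, and 2 were called higher in aly, where 0.346% were.

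Kinases and transcription factors of the pathway stood higher in treated WT DCs as well. All 4 JAK kinases were measured and 3 were called higher in WT, where 4.59% of genes were. The 3 were Jak3 at 1.79 ± 0.42, Jak1 at 1.78 ± 0.51 and Tyk2 at 1.66 ± 0.40, whereas Jak2 gave 0.72 (adjusted p = 0.40). None was called by limma in aly, where 0.393% of genes were called higher and 1 kinase had an unadjusted p under 0.05. Jak1 and Tyk2 were called lower in aly among treated DCs, at -2.25 ± 0.51 and -1.79 ± 0.40, where 2.38% of genes were. Of 7 STATs 6 were measured and 5 called higher in WT, where 4.59% of genes were. The 4 with the smallest p were Stat4 at 3.72 ± 0.41, Stat5a at 3.32 ± 0.44, Stat3 at 2.62 ± 0.38 and Stat2 at 2.73 ± 0.45. The median change of the 6 STATs was 2.68 in WT and 0.87 in aly, beside -0.12 and -0.07 over all 15019 genes. In aly 0 of 6 were called by limma, where 0.393% of genes were called higher and 3 STATs had an unadjusted p under 0.05. Among treated DCs, 3 STATs were called lower in aly, where 2.38% of genes were. Stat4 read 2713.3 to 4288.6 in WT treated and 206.1 to 272.1 in aly treated DCs (-3.66 ± 0.41, adjusted p = 0.00056).

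Of 14 other inhibitors of the pathway 5 were called higher in WT, where 4.59% of genes were. Among them was Usp18, which restrains the type I interferon receptor, at 3.06 ± 0.41. None of the 14 was called by limma in aly, where 0.393% of genes were called higher. There 6 higher and 2 lower had an unadjusted p under 0.05. Among treated DCs 2 were called lower in aly than in WT, where 2.38% of genes were, Usp18 at -2.12 ± 0.41 and the phosphatase Dusp2 at -1.49. None of the 6 partners that join the SOCS box to its ubiquitin ligase was called by limma in any comparison, 1 had an unadjusted p under 0.05 in the WT response and 3 between treated genotypes, 2 higher and 1 lower in aly, and their median change in WT was 0.02. Of 4 Spsb genes, whose proteins also carry a SOCS box, Spsb1 was called higher in WT at 3.18 ± 0.41 (adjusted p = 9.88e-05). It was also called higher in aly at 2.01 ± 0.41 (adjusted p = 0.048), and 4.59% and 0.393% of genes were called higher in WT and aly. Its aly call was lost without aly treated replicate 1.

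Genes whose log2 values followed those of each responding member most closely were sought over the 12 arrays, which share 4 groups, and likeness was measured as Pearson's r. The genes named had the highest r among probe sets of all other genes, so the size of r is not support for shared regulation. Socs1 was matched most closely by C1qtnf12 (0.97), Castor2 (0.97) and Crispld2 (0.96). Socs1 exceeded the array's 40th percentile on only 4 arrays, so its r rests mostly on the WT treated arrays. Socs2 1449109_at was matched by Plcd3 (0.99), the chemokine gene Cxcl10 (0.98) and Adgrg6 (0.98). Socs3 1455899_x_at was matched by the stress-induced gene Gadd45b (0.98), Anxa2 (0.98) and Ifit1 (0.98), an interferon-stimulated gene. Cish was matched by Glipr2 (0.98), Pik3r1 (0.97) and Lamp2 (0.97).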

How the data were processed

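Gene expression was measured in 12 RNA pools of mouse splenic DCs. The deposited values are scaled array intensities of the authors, 1 per probe set and array, with a 2% trimmed mean of 150.00 on every array. The labels describe amplification before labelling. For the software and its background step, the sources used here give no name. Of 45101 probe sets, 34958 carried 1 symbol in the platform annotation and 64 were controls. All value columns were matched to samples (0 unmatched).

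The filter kept 34205 probe sets that exceeded the array's 40th percentile on 3 or more arrays. Log2 of the deposited intensity plus 16 was fitted in limma 3.58.1 (R 4.3.3) with 1 mean per group over all 12 arrays and moderated variances (8 residual and 9.51 prior degrees of freedom). The median standard error was 0.44, and 0.62 in the interaction, and the number of arrays limits the precision. Fold changes come from the log2 changes and understate those of low values. P-values were adjusted over all probe sets of a comparison. The fitting step alone was also run on simulated data, with normal noise of equal spread on all arrays and changes only in WT treated. That simulation held no outlying array, batch or genotype difference, so it does not cover these features of the data.

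Every SOCS probe set is named, as are up to 4 members of each pathway list with the smallest p in the WT response, Map3k14, and the 3 genes most like each responding member. The natural killer cell markers were named after their values were seen. The members and lists were chosen with earlier results of these data known. Promoters are RefSeq sequences of GRCm38.p6. Alternatives changed the offset, filter, scaling, block, arrays, weights and covariates. The list counts without aly treated replicate 1 were added after the data were seen.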

Additional observations from a re-analysis of the deposited data

Results flagged for a closer look

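The response of Socs2 probe set 1418507_s_at to LPS with anti-CD40 differed between genotypes by a test of the difference itself, the interaction, at -3.30 ± 0.58 on the log2 scale (limma adjusted p = 0.046). Arrays read 3135.2 to 4633.1 in WT treated and 252.2 to 668.3 in aly treated DCs, and the untreated ranges overlapped. The adjusted p ranged from 0.012 to 0.22 when single arrays were left out, and the call held in 2 of these 12 fits. It held in 5 of 10 other alternatives. No other Socs2 probe set was called in the interaction (limma adjusted p 0.31 to 0.96).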

How the results depend on the processing

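Of 2776 values of single SOCS probe sets under alternatives, 2675 kept their side of the threshold, 41 lost a call and 60 gained one. No called value reversed, and 125 uncalled values among the 2675 changed sign. The 10 calls of the WT response became 4 with 1 probe set per gene, where at most 8 were tested. The 3 calls of the aly response became 0 with an offset of 1, 0 with only the groups compared and 1 with replicates 2 and 3 alone. The 2 calls between treated genotypes became 1 with an offset of 1, with 1 probe set per gene or with only the groups compared, 4 with an offset of 64, 6 with median centring, a spike-in batch block or replicates 2 and 3 alone, 5 with the 3'/5' ratio as a covariate and 12 with array weights. Array weights gave 1 call between untreated genotypes, where the other fit had 0. The 1 interaction call became 0 with an offset of 1, no filter, median centring, quantile normalization or 1 probe set per gene, 3 with the 3'/5' covariate and 6 with array weights. With replicates 2 and 3 alone 1418507_s_at lost this call and 1438470_at gained one. Apart from the smaller number tested with 1 probe set per gene and the fewer arrays in some fits, the cause was not tested. Leaving out 1 array at a time gave 10 to 12 calls for the WT response, 1 to 3 for the aly response, 0 to 1 between untreated, 2 to 7 between treated genotypes and 0 to 3 for the interaction, with the highest count without aly treated replicate 1 in each. For the aly response other arrays shared that count, and the lowest came without aly untreated replicate 1 or 3. The Socs1 call between treated genotypes was lost with an offset of 1 (adjusted p = 0.0503) and with only the groups compared. Same-numbered arrays of different groups deviated together with r above 0.1 in 7 of 18 pairs, with a median r of 0.08 against -0.06 in other pairs. The main fit did not pair arrays by number, and a replicate block was run as an alternative. With the replicate block 4 SOCS probe sets were called between treated genotypes and 10 in the WT response. For 9 of 12 arrays the mean correlation with arrays of other groups was highest for their own number, so same-numbered arrays shared some deviation. Over all probe sets, the counts of 2237, 94, 127, 1297 and 17 in the WT, aly, untreated, treated and interaction comparisons ranged over 920 to 4588, 16 to 127, 0 to 673, 88 to 2773 and 1 to 157 when single arrays were left out, and over 1122 to 5678, 2 to 181, 0 to 867, 20 to 4165 and 0 to 372 under the other alternatives. Higher calls were 58.5% of all in the WT response and 46.9% between treated genotypes, against 71.7% and 14.99% with median centring, which moved the median over all probe sets between treated genotypes from 0.21 to -0.14. Values near the offset of 16 carry little information on fold changes.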
